A study of Mus musculus with 33 samples.

Results

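The replication-dependent histone genes encode the linker histone H1 and the core histones H2A, H2B, H3 and H4 that package newly made DNA. They were taken from the deposited expression table by mouse symbol, as every symbol starting Hist1h, Hist2h, Hist3h or Hist4h or its newer equivalent, and 47 of the 14717 genes in the table met this. The table of mouse gene names holds 70 such symbols, and the other 23 were not analysed here. Of the 47 genes, 39 carry a Hist1 name, 5 a Hist2 name and 3 a Hist3 name. By family they were 6 H1, 13 H2A, 11 H2B, 6 H3 and 11 H4 genes. RefSeq lists Hist1h2al and Hist3h2bb-ps as pseudogenes, and Hist1h1t is the linker histone of the testis, so the name replication-dependent does not describe these 3 members well.

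Most of these genes lie in clusters, have no introns, and are transcribed together as cells enter S phase, when the NPAT protein gathers at histone locus bodies. Their transcripts end in a stem-loop bound by SLBP instead of a poly(A) tail, and they are degraded when DNA synthesis stops. Replacement histones such as macroH2A, H2A.Z and the linker histone H1X are made outside S phase from polyadenylated RNA.

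The study used P19 cells, a mouse embryonal carcinoma line obtained from ATCC that forms neural cells with retinoic acid and mesodermal cells with DMSO. The 15 RNA libraries fell into 5 groups of 3: undifferentiated cells at day 0 (D0), cells given 1 µM all-trans retinoic acid at day 3 (D3RA) and day 6 (D6RA), and cells given 1% DMSO at day 3 (D3DMSO) and day 6 (D6DMSO). Both treatments began with aggregation into embryoid bodies in bacteriological dishes and ended in flasks with maintenance medium, so aggregation is shared by all 4 treated groups and DMSO is a second inducer and no untreated control. The design text calls the replicates biological, but no label speaks of separate cultures; p-values here cover only the spread between these libraries, which may be technical. The RNA was total RNA depleted of ribosomal RNA, which keeps transcripts without a poly(A) tail, and the series' 18 chromatin samples were not analysed here.

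The libraries held 3.55 to 9.88 M counts (megacounts) at D0 and D3 and 38.2 to 49.6 M at D6. The 11 mitochondrial genes took 0% of the counts in every D0 and D3 library, 49.8 to 55.8% in D6DMSO and 41.6 to 42.6% in D6RA, so differences between the D6 and D3 libraries cannot be told apart from differences between the days. Another 4 abundant genes (Lars2, Gm15564 and 2 without a symbol) took 9.15, 23.2 and 8.86% of the non-mitochondrial counts in D0 replicates 1 to 3, 3.09, 32.8 and 24% in D3DMSO, 1.97, 39.5 and 45.7% in D3RA and at most 1.7% in the day 6 libraries. Levels are given in CPM, counts per M, which are counts scaled to a common library size by the factors that the deposited values imply. Markers followed the labels in part. Pou5f1, a pluripotency factor, averaged 1317 ± 98.3 CPM (SD, n = 3) at D0 and 0.115 ± 0.124 in D6RA. With DMSO it was still at 555 ± 247 in D3DMSO and 47 ± 5.98 in D6DMSO. The pluripotency gene Nanog averaged 76.7 ± 6.83 at D0 and 68.1 ± 24.1 in D3DMSO, while Utf1 (99 to 9.38) and Tdgf1 (226 to 99.3) were lower there. In D6DMSO the cardiac genes Actc1, Myh6, Myl7 and Tnnt2 averaged 62.6, 18.9, 7.54 and 4.99 CPM. The mesoderm factor T averaged 874 ± 18.7 CPM in D3DMSO, and the neuronal gene Dcx 831 ± 48.3 in D6RA. Markers of other cells were also present, such as the endothelial gene Cdh5 at 35.4 ± 6.31 CPM in D3RA and the smooth muscle gene Acta2 at 291 ± 27.3 in D6DMSO. Other short RNAs without a poly(A) tail (63 genes such as Rn7sk) summed to 29493 to 31988 CPM at D0, 63853, 38826 and 30118 in D3DMSO replicates 1 to 3, 65507, 50135 and 78214 in D3RA, 43752 to 59804 in D6DMSO and 46601 to 55803 in D6RA. These sums differed between groups and replicates, and their part in the histone results was not tested.

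The families differ in the letters before their transcription starts. Of the 47 genes, 41 matched a RefSeq promoter window (GRCm38.p6, 250 bases before to 50 after the start), which was searched on both strands for 5 short motifs, and no different motifs overlapped. Hist1h2al, Hist1h2bc, Hist1h3a, Hist2h2be, Hist2h4 and Hist3h2bb-ps had no window. The 150 bases before the start of 6 genes the results below turn on are printed 5′ to 3′, with every match on either strand in capitals. Hist1h1e lies at chr13:23622559-23622708 on the minus strand, Hist1h1a at chr13:23763518-23763667 on the plus strand, Hist1h2bg at chr13:23571250-23571399 on the plus strand, Hist1h4d at chr13:23581418-23581567 on the plus strand, Hist3h2ba at chr11:58948761-58948910 on the plus strand and Hist3h2a at chr11:58954535-58954684 on the plus strand; these coordinates are of that build, while the expression table was made on mm9.
Hist1h1e: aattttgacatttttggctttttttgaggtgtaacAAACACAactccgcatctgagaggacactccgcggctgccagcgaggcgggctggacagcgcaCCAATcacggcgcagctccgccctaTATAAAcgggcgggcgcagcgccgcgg
Hist1h1a: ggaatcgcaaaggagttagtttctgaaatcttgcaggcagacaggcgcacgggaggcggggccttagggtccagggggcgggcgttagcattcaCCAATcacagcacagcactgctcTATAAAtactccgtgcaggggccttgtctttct
Hist1h2bg: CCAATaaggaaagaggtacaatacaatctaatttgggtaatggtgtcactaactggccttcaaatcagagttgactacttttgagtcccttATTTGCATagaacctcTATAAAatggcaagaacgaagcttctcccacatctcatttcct
Hist1h4d: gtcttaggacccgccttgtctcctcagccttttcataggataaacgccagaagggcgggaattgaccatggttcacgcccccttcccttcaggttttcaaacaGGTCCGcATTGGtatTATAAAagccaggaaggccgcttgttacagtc
Hist3h2ba: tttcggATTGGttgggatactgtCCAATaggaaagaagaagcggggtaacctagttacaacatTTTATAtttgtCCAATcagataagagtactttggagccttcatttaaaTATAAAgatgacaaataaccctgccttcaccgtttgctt
Hist3h2a: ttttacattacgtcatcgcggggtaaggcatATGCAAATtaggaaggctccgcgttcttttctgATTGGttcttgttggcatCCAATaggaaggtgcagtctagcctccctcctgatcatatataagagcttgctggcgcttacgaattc
CCAAT, the box bound by NF-Y, was in 34 of 41 member windows and 37.41% of all 32851 promoter windows. All H1, H2A, H2B and H3 windows held it, against 3 of 10 H4 windows. TATAAA, the TATA box, was in 26 of 41 member windows and 13.62% of all windows. AAACACA, known from H1 promoters, was in 5 of 6 H1 windows and 7.184% of all, and Hist1h1a is the H1 gene without it. ATTTGCAT, the octamer known from H2B promoters, was in 6 of 12 H2A and 4 of 8 H2B windows and 1.735% of all. The windows of Hist1h2ae and Hist1h2bg, and of Hist1h2ah and Hist1h2bk, overlap almost fully. The same bases can thus count for both families. Hist1h2be has a further window, without the octamer, that was not counted. GGTCCG, part of an element known from H4 promoters, was in 9 of 10 H4 windows and 8.252% of all. A match is a description of the sequence and not a measured binding site.

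Summed over the 47 genes in CPM, histone RNA was highest in D3RA and lowest at day 6, an order that depends on how the 4 abundant genes are treated. The libraries held 12604, 13564 and 12668 CPM at D0. In D3DMSO they held 12551, 11695 and 10638 CPM and in D3RA 15663, 15199.9 and 14972. The 3 D3RA libraries all lay above the other 12, and the 3 D3DMSO libraries lay below the D0 range. At day 6 the sums were 8609.8, 8053 and 8416 CPM in D6DMSO and 7433, 8105 and 8198 in D6RA. All 6 of these lay below every D0 and D3 library, and the 2 treatments overlapped at day 6. Shares of counts were computed after seeing these sums. As a share of all non-mitochondrial counts, histone RNA was 1.75, 1.07 and 0.923% in D3RA replicates 1 to 3, 1.21 to 1.36% at D0, 0.973 to 1.48% in D3DMSO, 0.961 to 1.0% in D6DMSO and 0.823 to 0.914% in D6RA. On that scale D3RA replicates 2 and 3, in which the 4 abundant genes took the most, lay below every D0 library, and D3RA overlapped day 6. With the 4 genes also left out the shares were 1.7 to 1.79% in D3RA, 1.47 to 1.57% at D0 and 1.32 to 1.52% in D3DMSO, so that D3RA lay above the other groups again and D3DMSO overlapped D0. The day 6 shares were then 0.969 to 1.01% in D6DMSO and 0.837 to 0.919% in D6RA, below all of these. In such bulk RNA, fewer cells in S phase and less histone RNA per cell cannot be told apart.

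**Figure D1:**
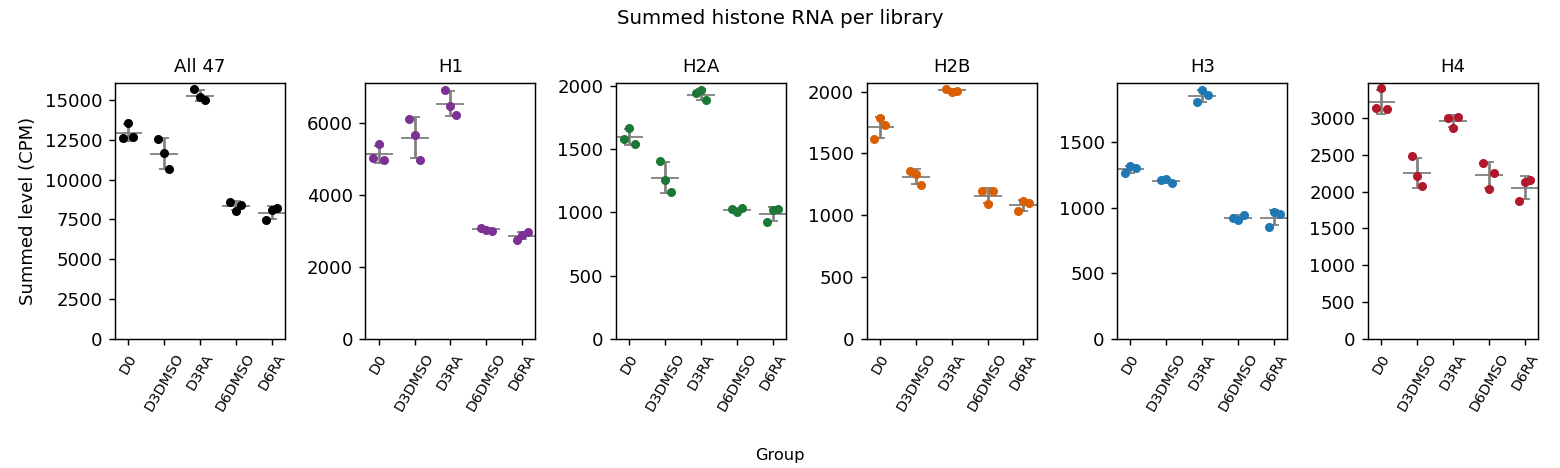
Summed level in CPM (y axis, from 0) by group for all 47 histone genes and for each family; points are the 3 libraries, grey bars the mean ± SD. On this scale the D3RA sums sit above all other libraries, the H1 panel shows the D3DMSO mean above the D0 mean, and the H2A, H2B, H3 and H4 panels show all D3DMSO libraries below D0.

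The shares of linker and core histone RNA differed between the groups. H1 genes made up 39.3 to 39.8% of histone counts at D0, 46.7 to 48.6% in D3DMSO and 41.4 to 44% in D3RA. At day 6 the share was 35.5 to 37.6% in D6DMSO and 35.4 to 37% in D6RA. The 3 groups of days 0 and 3 did not overlap with one another, and D3DMSO was the highest. Without Hist1h1c the H1 share was 33 to 33.8% at D0 and 33.1 to 35.5% in D3RA, which overlapped, and 36.5 to 39.2% in D3DMSO, above both. The H4 genes made up 24.6 to 25.1% at D0, 18.9 to 19.8% in D3DMSO and 18.9 to 20.1% in D3RA, lower in both treatments than at D0. These shares rest on CPM, which favours long transcripts, so they compare groups and not genes.

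In D3DMSO against D0, histone genes were mostly lower. By limma, 26 of the 47 genes were lower and 3 higher at an adjusted p under 0.05 (Benjamini-Hochberg over all genes), with a median log2 fold change of -0.35 (all genes 0.02). Over all 14717 genes 27.8% were lower and 28.2% higher. The lower members were 8 of 13 H2A, 7 of 11 H2B, 9 of 11 H4 and 2 of 6 H1 genes. No H3 gene was lower. Leaving out D3DMSO replicate 1, which stands apart in short RNAs, gave 29 lower and 2 higher. With any 1 library left out, 21 to 29 were lower and 2 to 3 higher. Over all alternatives 20 to 29 were lower and 2 to 5 higher.

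In D3RA against D0 the genes split. There were 17 higher and 13 lower members (median 0.10, all genes 0.01), where 35% of all genes were higher and 33.9% lower, so the number of members called was near the background. By family, 2 H1 genes rose and 3 fell, 5 H2A rose and 1 fell, and 4 H2B rose and 4 fell. In H3 5 rose and 0 fell, and in H4 1 rose and 5 fell; differences between families were not tested. This comparison shares its D0 libraries with that of D3DMSO against D0.

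Against each other, the 2 treatments at day 3 differed in most members: 33 of 47 were higher in D3RA and 2 lower (median 0.46, all genes -0.01). Among all genes 30.7% were higher and 31.4% lower. In 32 of the 33 higher members the D3RA and D3DMSO libraries did not overlap. Called members seldom overlapped in the other comparisons either, and the share over all genes was not computed. The lack of overlap is therefore no support beyond the calls themselves. All 6 H3 genes were higher, as were 10 of 13 H2A, 8 of 11 H2B and 7 of 11 H4 genes. The exception was H1, with 2 higher, 2 lower and 2 not called. Of the 63 short RNAs, 9 were higher and 4 lower in the same comparison. Without D3DMSO replicate 1 the member counts were 33 higher and 2 lower, and without D3RA replicate 1 there was 1 lower. With any 1 library left out, 29 to 33 were higher, and over all alternatives 28 to 34.

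**Figure D2:**
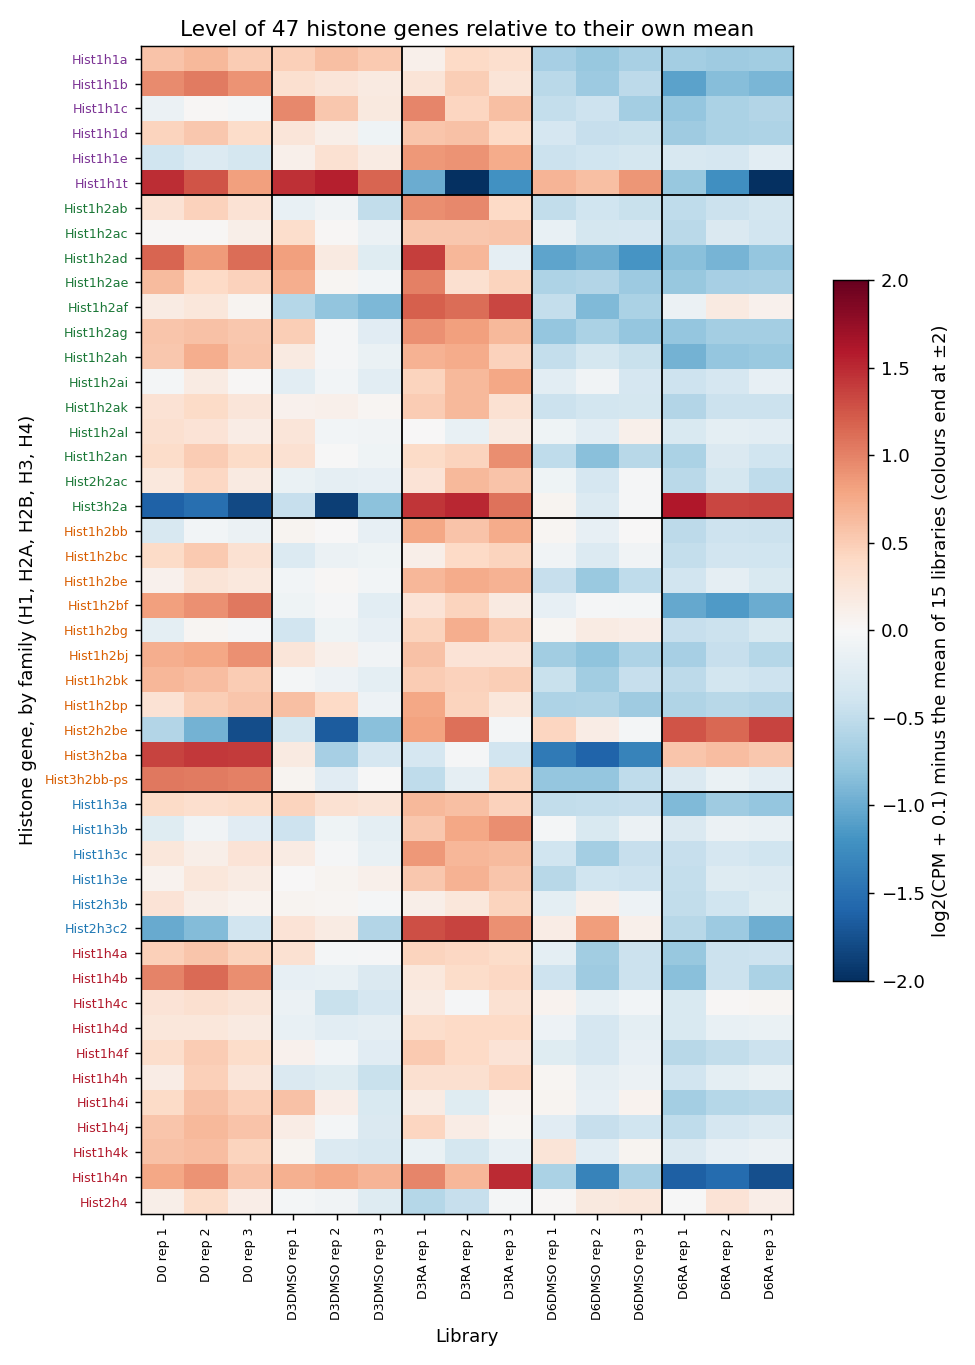
Colour gives the log2 level of each of the 47 histone genes (y axis, by family) in each of the 15 libraries (x axis) relative to the gene's own mean, computed on log2(CPM + 0.1); red is above and blue below the mean. The D3RA columns are red for most H2A and H3 genes, and the D6RA columns are blue for most genes, with Hist3h2a, Hist3h2ba and Hist2h2be among the red ones.

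Among the 5 group means, D3RA held the highest for 26 members and D0 for 18; D3DMSO held it for 1 and D6RA for 2. The lowest mean was in D6RA for 24 members and in D6DMSO for 14. The families differed in this order, as a description with no test: 6 of 6 H3 and 10 of 13 H2A genes peaked in D3RA, while 8 of 11 H4 genes peaked at D0. The shares of all genes that peak in each group were not computed, so these counts have no background beside them.

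The linker histones moved against one another. Hist1h1e, a somatic linker subtype, was at 816, 893 and 849.6 CPM at D0, 1155, 1331 and 1205 in D3DMSO and 1977, 2014 and 1807 in D3RA. Its D0, D3DMSO and D3RA libraries did not overlap, and D3RA was the highest. It rose in D3DMSO against D0 (log2 fold change 0.53 ± 0.08 SE, adjusted p = 1.92e-05) and more in D3RA (log2 fold change 1.18 ± 0.08 SE, adjusted p = 6.71e-10). Hist1h1c, another somatic linker subtype, was at 1129, 1251 and 1194 CPM at D0, 2389, 1787 and 1403 in D3DMSO and 2432, 1663 and 1865 in D3RA. Both D3 groups lay above D0 and overlapped each other. Replicate 1 was the highest in both D3 groups, and in these libraries the 4 abundant genes took the least of their group (3.09 and 1.97%). The short-RNA sums were highest in replicate 1 of D3DMSO and in replicate 3 of D3RA. Whether the spread of Hist1h1c goes with either was not tested. The change against D0 was 0.61 in D3DMSO (adjusted p = 0.00351) and 0.72 in D3RA (adjusted p = 0.000659).

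Hist1h1b, also a somatic linker subtype, fell in both treatments, from 847, 908 and 826 CPM at D0 to 555, 524 and 501 in D3DMSO (log2 fold change -0.71 ± 0.08 SE, adjusted p = 2.12e-06) and 527, 620.2 and 526 in D3RA (log2 fold change -0.63 ± 0.08 SE, adjusted p = 4.2e-06). Hist1h1a, the linker gene without the AAACACA motif, was at 1188, 1257 and 1134 CPM at D0, 1109, 1211 and 1147 in D3DMSO and 862, 1049 and 1013 in D3RA. The D3RA libraries lay below the D3DMSO ones, with the lowest in replicate 1 (log2 fold change -0.25 ± 0.08 SE, adjusted p = 0.0103). Without D3RA replicate 1 the adjusted p was 0.0715, and over all alternatives it ran from 0.000572 to 0.0855. Hist1h1d was lower in D3DMSO than at D0 and in D3RA (log2 -0.36 and, for D3RA against D3DMSO, 0.42). At day 6 all of the 5 somatic H1 genes fell from their day 3 levels in both treatments, and Hist1h1a was at 505, 470.3 and 508 CPM in D6DMSO and 499, 488 and 495 in D6RA.

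Of the 13 H2A genes, 8 were lower in D3DMSO than at D0, and 10 were higher in D3RA than in D3DMSO. Among all genes these shares were 27.8% and 30.7%. Hist1h2af showed the largest day 3 treatment difference of the Hist1 H2A genes, at 74.7, 78.5 and 69.7 CPM at D0, 45.2, 38.6 and 35.8 in D3DMSO and 153, 146 and 169 in D3RA. The 3 groups did not overlap (log2 fold change 1.97 ± 0.11 SE, adjusted p = 1.62e-10 between the treatments). At day 6 it was still higher with retinoic acid, at 61.8, 76.2 and 70.9 against 47.8, 36.1 and 43.2 CPM (log2 0.72). Hist1h2ak, the H2A gene with the highest mean CPM, was at 293, 296 and 286 CPM in D3DMSO and 393, 433 and 341 in D3RA, without overlap (log2 fold change 0.41 ± 0.08 SE, adjusted p = 0.000258). Hist1h2al, the pseudogene, was at 229, 187 and 185 CPM in D3DMSO and 195, 176 and 221 in D3RA, which overlapped (log2 -0.02, adjusted p = 0.875). Hist1h2ad fell from 49, 31.6 and 23.4 CPM in D3DMSO to 13.3, 14.1 and 12.2 in D6DMSO (log2 fold change -1.33 ± 0.28 SE, adjusted p = 0.000815). It varied widely among the replicates of D3RA, from 24.7 to 72.9 CPM, and was at most 16.2 CPM in every day 6 library.

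Of the 11 H2B genes, 4 were higher and 4 lower in D3RA than at D0, near the 35% and 33.9% of all genes. Hist1h2bb was at 363, 433 and 415 CPM at D0, 467, 454 and 404 in D3DMSO and 773, 672 and 757 in D3RA. D3RA lay above both other groups (log2 fold change 0.86 ± 0.09 SE, adjusted p = 1.37e-07 against D0). Hist1h2bf was on the other side, with 58.6, 62.6 and 68.8 CPM at D0, 31.2, 32.4 and 28.5 in D3DMSO and 39.8, 44.9 and 37.5 in D3RA. It fell in both treatments, without overlap with D0 (log2 -1.04 and -0.63). At day 6 it was at 16.2, 15.1 and 16.5 CPM in D6RA, below 29.3, 32.5 and 32 in D6DMSO (log2 fold change -0.97 ± 0.09 SE, adjusted p = 7.19e-08). Hist1h2be rose in D3RA to 315, 331 and 322 CPM from 210.1, 237 and 229 at D0 (log2 0.52). Hist1h2bg, whose promoter holds the octamer, was at 274, 332 and 285 CPM in D3RA and 146, 148 and 163 in D6RA, without overlap.

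All 6 H3 genes had their highest mean in D3RA. Hist1h3e was at 484, 539 and 518 CPM at D0, 464, 479 and 494 in D3DMSO and 668, 746 and 681 in D3RA. Only the D3RA libraries stood apart from the other 2 groups (log2 fold change 0.44 ± 0.08 SE, adjusted p = 6.91e-05 against D0). Hist1h3b was at 233, 261 and 235 CPM at D0, 207, 257 and 239 in D3DMSO and 399, 469.7 and 519 in D3RA, and the same held (log2 fold change 0.92 ± 0.10 SE, adjusted p = 5.24e-07 against D0). Hist2h3c2 had few reads, with counts of 11, 8 and 19 at D0 and 65, 19 and 10 in D3RA, so its fold change of 1.99 on the log2 scale rests on few reads.

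The H4 genes encode nearly the same protein throughout. Against D0, 9 of 11 were lower in D3DMSO, while in D3RA 5 were lower, 1 was higher and 5 were not called. Among all genes 27.8% were lower in D3DMSO, and in D3RA 33.9% were lower and 35% higher. Hist1h4d was at 834, 841 and 814 CPM at D0, 645, 616 and 629.8 in D3DMSO and 914, 944 and 945 in D3RA. The groups did not overlap, and D3DMSO was lowest (log2 fold change -0.40 ± 0.07 SE, adjusted p = 0.000144 against D0). Hist1h4h was at 409, 515 and 439 CPM at D0 and 459, 459.9 and 497 in D3RA, which overlapped, and at 302, 312 and 272 in D3DMSO (log2 -0.62 against D0). Hist1h4b was below D0 in both treatments, with 143, 157 and 137 CPM at D0, 63.8, 64.9 and 58.7 in D3DMSO, 82.7, 92.2 and 95.5 in D3RA. It fell by 1.22 and 0.69 on the log2 scale in D3DMSO and D3RA. Hist2h4, the H4 gene outside the Hist1 cluster, was at 137, 163 and 139 CPM at D0, 85, 92.5 and 123 in D3RA and 126, 153 and 139 in D6RA. Its mean was lowest in D3RA, and it rose from there to D6RA (log2 fold change 0.49 ± 0.12 SE, adjusted p = 0.00155), the direction opposite to most members. Hist1h4n went the common way, from 8.93, 7.17 and 12.8 CPM in D3RA to 1.39, 1.48 and 1.25 in D6RA, without overlap (log2 fold change -2.78 ± 0.23 SE, adjusted p = 2.64e-08). Histone paralogs are nearly identical, and how reads matching several of them were counted is not given in the sources used here, so differences between members of 1 family are uncertain.

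**Figure D3:**
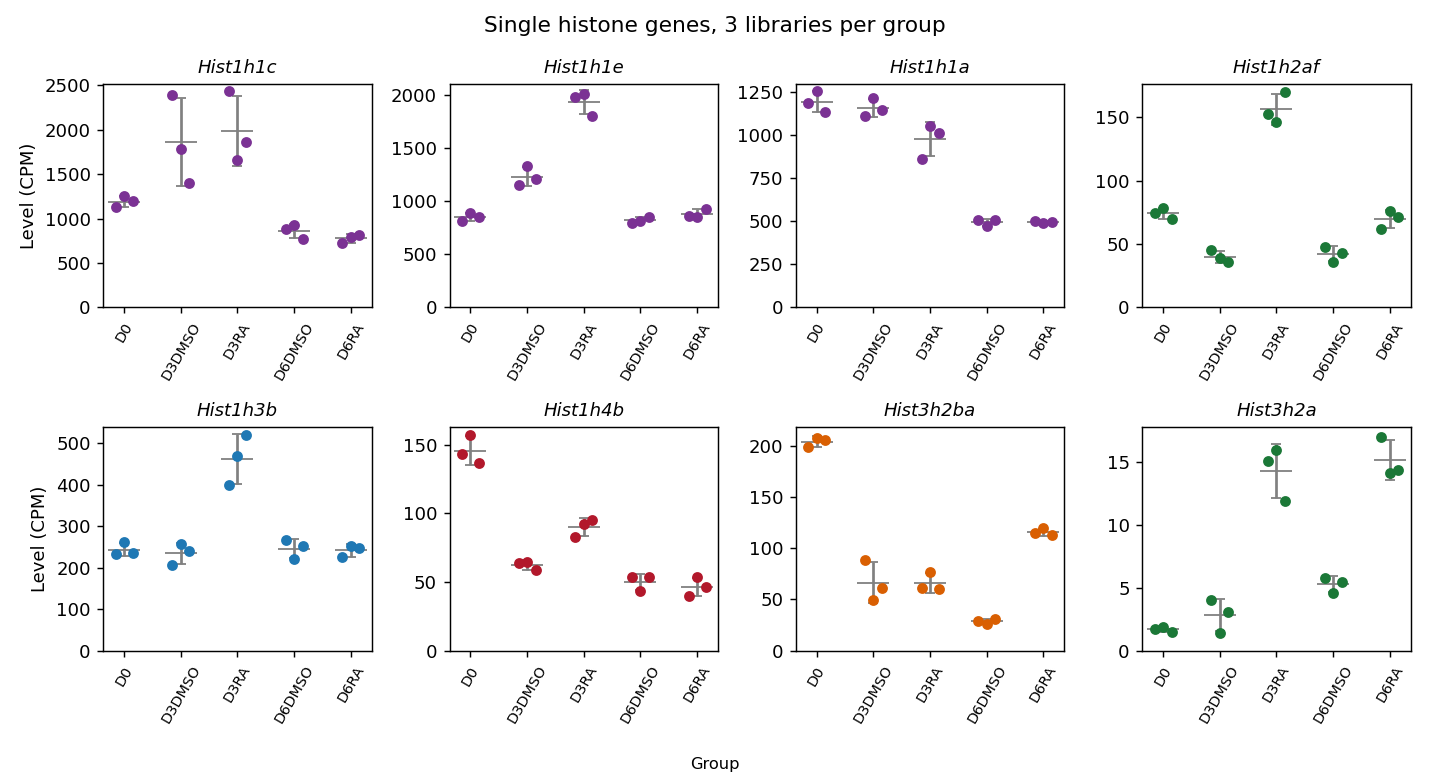
Level in CPM (y axes, from 0) of 8 histone genes by group, with the 3 libraries as points and mean ± SD in grey. Hist1h2af and Hist1h3b peak in D3RA, Hist1h4b and Hist3h2ba are highest at D0, and Hist3h2a is higher in both retinoic acid groups.

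The 3 Hist3 genes lie on another chromosome than the Hist1 cluster. Hist3h2ba, an H2B gene, was at 199, 208 and 206 CPM at D0, 88.1, 49.3 and 61.7 in D3DMSO and 61.3, 76.9 and 59.8 in D3RA. Both day 3 groups lay far below D0 and overlapped each other (log2 -1.66 and -1.64 against D0). At day 6 it was at 29.1, 25.7 and 30.9 CPM in D6DMSO and 115, 119.6 and 113 in D6RA. These did not overlap (log2 fold change 2.02 ± 0.15 SE, adjusted p = 3.04e-09), and it was 1 of 2 members to rise from D3RA to D6RA. Hist3h2a, an H2A gene, was at 1.74, 1.89 and 1.51 CPM at D0, 4.0, 1.44 and 3.1 in D3DMSO and 15.1, 16 and 11.9 in D3RA, and at day 6 at 5.79, 4.58 and 5.47 in D6DMSO and 17, 14.1 and 14.4 in D6RA. Retinoic acid libraries lay above the DMSO libraries on both days (log2 fold change 2.41 ± 0.27 SE, adjusted p = 8.15e-07 at day 3, log2 1.52 at day 6). Its counts at D0 were 17, 12 and 16. Hist3h2bb-ps, the pseudogene, was 14.7, 14.5 and 14.2 CPM at D0 and lower in both day 3 groups (log2 -1.09 and -1.10).

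Hist1h1t and Hist2h2be had few reads at D0 and day 3. Hist1h1t had counts of 34, 19 and 23 at D0 and 6, 0 and 1 in D3RA, and it is 1 of the 2 members called lower in D3RA than in D3DMSO (log2 -3.06). Hist2h2be had counts of 18, 9 and 8 at D0 and 209, 157 and 237 in D6RA, in libraries of unequal depth, and was called higher in D6RA than in D6DMSO (log2 1.09).

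From day 3 to day 6 most members fell, in both treatments. From D3RA to D6RA 39 of 47 members fell and 2 rose (median -0.96, all genes 0.07), while 32% of all genes fell and 37.2% rose. Of these, 18 fell at least 2-fold, against 11.8% of all genes. From D3DMSO to D6DMSO 25 members fell and 5 rose (median -0.37, all genes 0.01), against 28.1% and 28.3% of all genes. The 5 that rose became 3 without D3DMSO replicate 2 or 3 or without D6DMSO replicate 1 or 3. Over the same days 23 of 25 S-phase genes fell with retinoic acid and 20 with DMSO, and 50 and 16 of 63 short RNAs fell.

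At day 6 fewer members separated the treatments than at day 3. In D6RA against D6DMSO 6 members were higher and 15 lower (median -0.09, all genes -0.02), against 32.6% and 33.1% of all genes, so the share lower was close to the background and the share higher below it. Quantile normalization gave 4 and 19. The 6 higher members were 2 H2A and 4 H2B genes. Hist1h4i was among the lower, at 179, 153 and 179 CPM in D6DMSO and 107, 115 and 119 in D6RA (log2 fold change -0.58 ± 0.16 SE, adjusted p = 0.00393). Short RNAs moved in the same comparison, with 31 of 63 lower; their part in the histone result was not tested. Without D6RA replicate 1, the lowest of its group in summed short RNAs (46601 CPM), 6 members were higher and 12 lower. D6DMSO replicate 2 was likewise the lowest of its group (43752 CPM). With any 1 library left out, 5 to 6 members were higher and 12 to 15 lower.

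**Figure D4:**
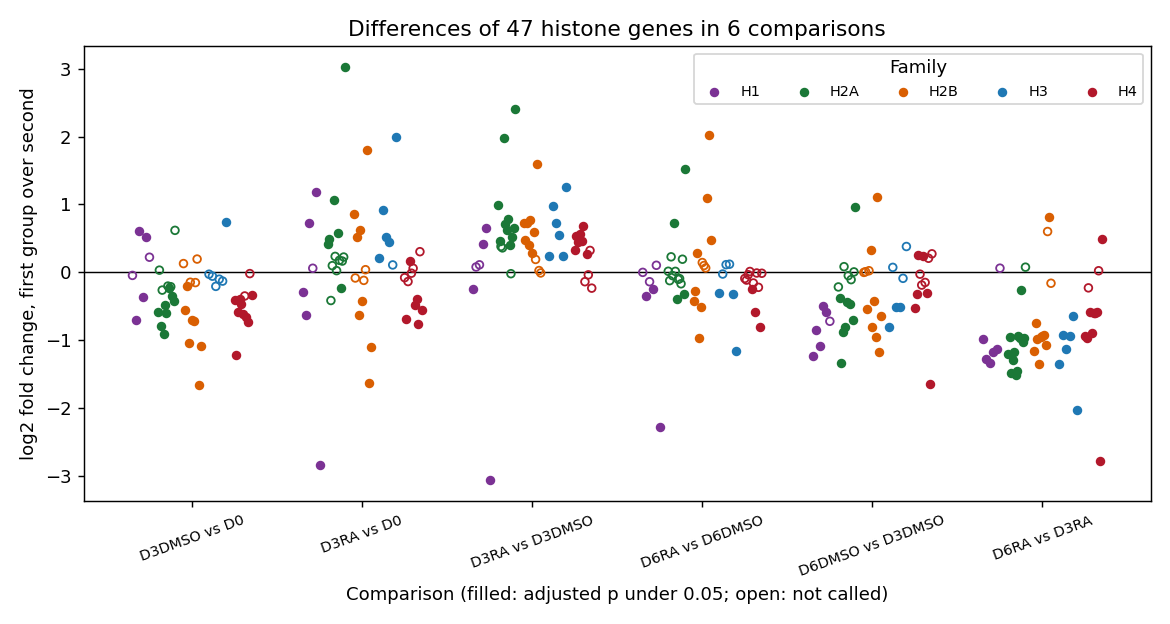
Log2 fold change (y axis) of the 47 histone genes in 6 comparisons (x axis), coloured by family; filled points passed an adjusted p under 0.05. D3RA against D3DMSO lies mostly above 0 and D6RA against D3RA mostly below.

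The treatment difference itself changed between the days. Tested as an interaction, 30 members had a lower D6RA against D6DMSO difference than D3RA against D3DMSO difference and 1 a higher one (median -0.54), against 23.1% and 25.4% of all genes. The 30 included all 6 H3, 8 of 13 H2A, 6 of 11 H2B and 7 of 11 H4 genes. The 1 higher member was Hist3h2ba (log2 fold change 2.0 ± 0.21 SE, adjusted p = 8.32e-07); there were 2 when D3DMSO replicate 1 or D3RA replicate 2 was left out and 3 when D3RA replicate 3 was. Of the 25 S-phase genes 20 were lower, and of the 63 short RNAs 23.

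**Figure D5:**
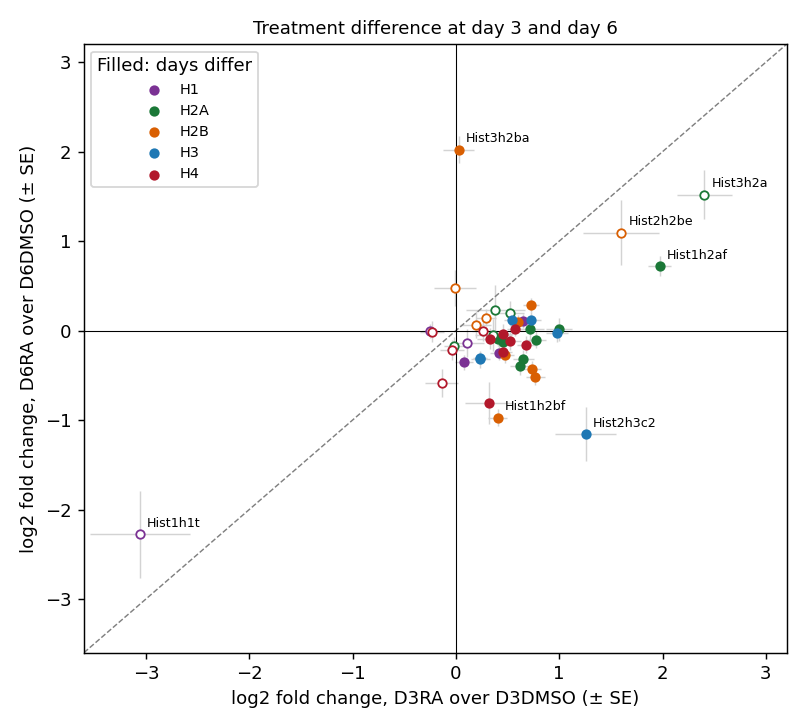
Each point is a histone gene, with the day 3 treatment difference on the x axis and the day 6 difference on the y axis, both as log2 fold change ± SE; filled points differed between the days. Most points lie to the right of 0 and below the dashed line of equal differences, and Hist3h2ba lies above it.

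H2A and H2B genes can face each other across a shared start region. Among the 41 members with a promoter window, 5 such pairs have starts within 500 bases; members without a window could not be paired. Both genes of a pair were called the same way in 5 of 5 pairs from D3RA to D6RA, where 39 of 47 members fell. The number was 3 in D3DMSO against D0, where 26 of 47 members were lower, and 3 in D6DMSO against D3DMSO, where 25 were. It was 2 in D3RA against D3DMSO, where 33 members were higher, and 1 in the interaction, where 30 were lower. It was 0 in D3RA against D0 (17 higher, 13 lower) and 0 in D6RA against D6DMSO (6 higher, 15 lower). Whether paired genes were called alike more often than other members was not tested. In D6DMSO against D3DMSO the pair of Hist1h2ae and Hist1h2bg was called in opposite directions (log2 -0.88 and 0.33).

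Genes that make, process or carry histones were compared across the same groups. Slbp, the stem-loop binding protein, averaged 113 ± 6.18 CPM (SD, n = 3) at D0, 98.8 ± 1.0 in D3DMSO and 129 ± 5.28 in D3RA. It was higher in D3RA than in D3DMSO (log2 0.39) and its treatment difference was lower at day 6 (interaction -0.59). At day 6 it averaged 65.3 ± 3.78 CPM in D6DMSO and 56.7 ± 2.0 in D6RA. Npat, which activates histone transcription, differed between D3RA and D3DMSO by -0.05 (adjusted p = 0.637). Of the 19 measured processing genes, 4 were higher and 7 lower in D3RA than in D3DMSO, where 30.7% of all genes were higher and 31.4% lower. Of the 20 chaperones that carry histones to chromatin, 9 were higher and 6 lower, with Asf1a at 0.62 and Rbbp7 at -0.86. The replacement genes included H2afy (macroH2A), which rose by 2.40 on the log2 scale in D3RA and 1.35 in D3DMSO against D0, and H2afy2, which rose by 1.33 in D3RA. Against D0, 6 replacement genes were higher in D3RA and 2 lower, H2afx (-0.91) and Cenpa (-0.22). Of the 10 measured replacement genes 5 were higher and 3 lower in D3RA than in D3DMSO, with H1fx (-0.70) and H2afx (-0.47) among the lower. Of the 25 S-phase genes 11 were higher and 4 lower in D3RA than in D3DMSO (median 0.09, all genes -0.01). The higher included E2f2, an S-phase transcription factor, at 1.84, and the lower Cdc45 (-0.34) and Mcm6 (-0.24). Whether any of these lists differed from all genes was not tested.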

How the data were processed

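RNA was measured in 15 libraries of P19 cells with a stranded total RNA kit and 75 bp single-end reads, per the labels' protocols. The authors deposited log2 values per gene; the submitters' processing notes name Trimmomatic 0.32, STAR 2.6.0c, featureCounts, edgeR and limma and the build mm9, without roles, and how multi-mapping reads were counted is not given in the sources used here. Each library's deposited log2 values were whole counts plus 0.5 times a constant: 100.0% of values came out whole within 0.05. The recovered counts give the depths and, over the implied library size, the CPM. Of 14717 genes, 14228 had a symbol.

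The deposited log2 values were fitted with limma 3.58.1 (R 4.3.3), with a variance trend, over all 5 groups (10 residual degrees of freedom), no covariate and no filter on low values; 6 comparisons and the interaction of treatment and day were adjusted over all genes by Benjamini-Hochberg. A call is an adjusted p under 0.05. Sums and shares have no test. The test was checked on simulated data, where it missed some changed genes, mostly those changed least, and called some unchanged ones. Unchanged genes made up a larger share of those calls than the threshold of 0.05 allows. The counts of calls given here may therefore hold more false calls than that threshold implies.

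Values by library, for the groups set side by side, are given for the 2 genes of each family with the highest mean CPM and for the called members, 2 at each end of the fold changes of a comparison, whose higher group averaged at least 5 CPM; other members were named after their values were seen. Of the related lists (histone RNA processing, replacement variants, chaperones, S phase, short RNAs), Slbp, Npat and the genes with the most extreme changes are named. The members and lists were chosen with earlier results of these data known. Alternatives were other scalings and normalization, a pseudocount of 2 CPM, a filter of 5 CPM in 3 libraries, no trend, the groups of a comparison fitted by themselves, the replicate number as a block, and 1 library left out in turn; voom weights, the D0 and D3 libraries alone, and scaling to total counts without the mitochondrial and 4 abundant genes were added after seeing the data, as was scaling the sums to total counts without mitochondrial genes.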

Additional observations from a re-analysis of the deposited data

Results flagged for a closer look

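Among the members picked by mean CPM or fold change, the retinoic acid against DMSO difference changed between day 3 and day 6 for 15 by limma's interaction test. A negative value means that the day 6 difference on the log2 scale was lower than the day 3 difference. In the H1 family this was Hist1h1e (-0.55). Hist1h1b (-0.43) and Hist1h1d (-0.66), which were named after their values were seen, were also called lower and are not among the 15. In H2A it was Hist1h2af (-1.25) and Hist1h2ak (-0.50). In H2B it was Hist1h2bb (-1.16), Hist1h2be (-0.45), Hist1h2bf (-1.38), Hist1h2bg (-1.29) and, in the other direction, Hist3h2ba (2.0). In H3 it was Hist1h3b (-1.0), Hist1h3e (-0.42) and Hist2h3c2 (-2.41), the last with few reads. In H4 it was Hist1h4b (-0.64), Hist1h4d (-0.56), Hist1h4h (-0.84) and Hist1h4n (-1.13). Hist1h2af and Hist1h2be were higher with retinoic acid on both days, so their change is one of size. Hist1h2bb, Hist1h2bf, Hist1h2bg and Hist2h3c2 were higher with retinoic acid at day 3 and lower at day 6. Over all genes 23.1% had a lower and 25.4% a higher interaction value.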

How the results depend on the processing

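Over all alternatives, 211 values of the 14 member counts were within 1.5 times the reported count and 17 were not. For the 72 results on single members 1132 values kept their call and direction, 42 lost the call and 0 changed sign. The lost calls were Hist1h2ak and Hist1h2be in D3DMSO against D0, Hist1h2al in D3RA against D0 and in D6RA against D3RA, Hist1h4d in D3RA against D0, Hist1h1a in D3RA against D3DMSO, Hist1h2be in D6RA against D6DMSO and Hist1h4h in D6DMSO against D3DMSO. Scaling to total counts without the mitochondrial and 4 abundant genes gave 5 higher members in D3DMSO against D0 and 3 in D6DMSO against D3DMSO, and it shifted the median of all genes in D3RA against D3DMSO to -0.107. Members lower in D3RA than in D3DMSO numbered 1 with the compared groups alone and with the low-value filter, and 1 to 3 with a library left out. Members higher in D6DMSO than in D3DMSO numbered 3 without the variance trend and with quantile normalization, and 3 to 6 with a library left out. Members with a higher interaction numbered 2 with the pseudocount and with quantile normalization, 3 with voom weights, and 1 to 3 with a library left out. The cause of these moves was not tested. Without Hist1h1c the summed CPM averaged 11754 at D0, 9768 in D3DMSO, 13292 in D3RA, 7501 in D6DMSO and 7133 in D6RA, by construction lower. Scaled to total counts without the mitochondrial genes, it averaged 12477 in D3RA, 9806 in D6DMSO and 8794 in D6RA. With the 4 abundant genes also left out it averaged 15102 at D0, 14296 in D3DMSO, 17513 in D3RA, 9893 in D6DMSO and 8879 in D6RA.

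Of 30 correlations between same-numbered libraries 5 exceeded 0.1, with a range of -0.194 to 0.275. These 5 all lay among the D0, D3DMSO and D3RA libraries (0.148, 0.226, 0.103, 0.275 and 0.14). Every same-numbered correlation among those groups was positive. A weak shared replicate effect at D0 and D3 is therefore possible, and the main fit has no term for it. With the replicate number as a block, 34 members were higher and 2 lower in D3RA against D3DMSO, 27 lower in D3DMSO against D0, 39 lower in D6RA against D3RA and 30 lower in the interaction. Depth limits Hist1h1t, Hist2h2be, Hist2h3c2 and Hist3h2a at D0 and D3, where few reads were counted.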

Other observations

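Genes around the histones also differed where the members did not lead. In D6RA against D6DMSO 19 of 25 S-phase genes were lower and 2 higher, where 33.1% of all genes were lower, while 15 of 47 histone genes were lower. Ccne1, a cyclin of the G1/S transition, averaged 143 ± 13.6 CPM (SD, n = 3) at D0, 47.8 ± 0.627 in D3DMSO, 42.5 ± 1.27 in D3RA, 24.4 ± 1.62 in D6DMSO and 14.3 ± 0.578 in D6RA. It was therefore highest at D0, before either treatment. E2f2 averaged 5.61 ± 0.384 CPM at D0, 5.5 ± 0.787 in D3DMSO and 19.8 ± 2.57 in D3RA, and 7.64 ± 0.717 in D6DMSO against 22.8 ± 1.53 in D6RA, so it was higher with retinoic acid on both days.

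Of the 10 replacement histone genes, 6 were higher and 3 lower in D6RA than in D6DMSO. H2afy2, one of the macroH2A genes, averaged 53 ± 5.56 CPM in D6DMSO and 118 ± 3.56 in D6RA (log2 fold change 1.16). Cenpa (-1.06) and H2afz (-0.34) were among the lower. Of the 20 chaperones 6 were higher and 11 lower in the same comparison, and of the 19 processing genes 3 and 6. Over all genes 32.6% were higher and 33.1% lower.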
